A study of Mus musculus with 23 samples.

Results

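Retinal microRNAs of P23H rhodopsin knock-in mice given nanoparticles with the mouse rhodopsin gene were compared with those of uninjected mice of the same genotype. Members were the libraries whose labels name these groups: 11 from mouse gRho retinas and 5 from uninjected retinas, 16 of the 23 small RNA libraries of the series. All carry the P23H allele heterozygously (P23H+/- KI) and were taken at postnatal day 90, so nothing here sets them against a normal retina. The labels give the mouse gRho group as treated with the mouse rhodopsin gene and the uninjected group as untreated, and the series title names the vehicle as DNA nanoparticles carrying rhodopsin in its genomic form. Saline libraries do not enter, so injection and cargo cannot be told apart in this contrast. No source used here gives the promoter, dose, route or age at injection. Both eyes of an animal, read from the titles, were added together, leaving 7 mouse gRho mice, 4 of them with both eyes, and 3 uninjected mice, 2 of them with both eyes.

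Rhodopsin is the light-sensing receptor of rod photoreceptors, and the P23H form misfolds and leads to rod loss in a dominant form of retinitis pigmentosa. Supplying extra normal rhodopsin is one way to offset the mutant allele. MicroRNAs are short RNAs that repress messenger RNAs matching their seed, the bases from position 2 to 8. Photoreceptors are rich in the miR-183 cluster, neurons in miR-124 and miR-9, and pigment epithelium and Mueller glia in the miR-204 family. In a whole retina, fewer cells of a type and less RNA per cell cannot be told apart.

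The mature sequences below are shown because the comparison turns on them: rows at the top of the ranking in either direction, and the retinal markers used to read the libraries. A row of the count matrix names a locus and no arm, so both arms are printed where neither is plainly dominant in textbooks. Letters in capitals mark the seed, bases 2 to 8 from the 5′ end. Sequences are from RefSeq (GRCm38.p6), which had a mature entry for 50 of the 59 rows named here.
miR-28a-5p (chromosome 16): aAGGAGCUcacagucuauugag
miR-28a-3p (chromosome 16): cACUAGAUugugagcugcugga
miR-708-5p (chromosome 7): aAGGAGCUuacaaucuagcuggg
miR-296-5p (chromosome 2): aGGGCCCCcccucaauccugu
miR-296-3p (chromosome 2): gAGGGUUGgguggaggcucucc
miR-455-5p (chromosome 4): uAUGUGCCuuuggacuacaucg
miR-455-3p (chromosome 4): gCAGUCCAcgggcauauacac
miR-99b-5p (chromosome 17): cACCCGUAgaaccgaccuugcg
miR-369-5p (chromosome 12): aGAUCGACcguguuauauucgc
miR-369-3p (chromosome 12): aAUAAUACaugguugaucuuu
miR-376b-5p (chromosome 12): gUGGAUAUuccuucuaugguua
miR-376b-3p (chromosome 12): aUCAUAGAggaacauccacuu
miR-136-5p (chromosome 12): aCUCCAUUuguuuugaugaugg
miR-183-5p (chromosome 6): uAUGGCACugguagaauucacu
miR-96-5p (chromosome 6): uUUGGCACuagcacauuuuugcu
miR-182-5p (chromosome 6): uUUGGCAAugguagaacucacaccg
miR-9-5p (chromosome 3): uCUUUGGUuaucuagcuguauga
Among these, miR-28a-5p and miR-708-5p have the same seed. The seeds of miR-96-5p and miR-182-5p differ in their last base only, and those of miR-369, miR-376b and miR-136 are all different.

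Depth was between 6980992 and 25046363 reads of mature miRNA per mouse. Of these reads, the rows of the count matrix held 10.4% to 19.5% in each library. Counting error is larger for low rows, and 207 of the 332 rows tested averaged under 10 reads per 1000000. Levels are given as CPM, reads of a row per 1000000 mature miRNA reads after scaling by TMM, which offsets differences in composition. Libraries of a group always differed from each other by more than counting noise. Ribosomal RNA took over 3% of aligned reads in 3 mouse gRho and 3 uninjected libraries (3.00% to 6.20%) and 0.319% to 0.878% in the other 10. These rRNA-rich libraries make up 3 of 11 mouse gRho libraries and 3 of 5 uninjected ones. A pair of libraries stood apart in retinal markers. In the right eye of mouse gRho mouse 1, the miR-183 cluster lay 3.90 log2 units below the median of the 16 libraries and miR-124 lay 4.68 below, while its left eye lay 0.71 and 0.60 above. Uninjected mouse 2, for which only a left eye was sequenced, lay 1.47 and 1.50 below. Both enter the comparison, and for the lists and leading rows whose values moved most, those without one of them are given. The median over all rows was 0.08 without uninjected mouse 2, in place of 0.00, with 198 of 332 rows higher.

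With mouse gRho nanoparticles, 0 of 332 miRNA rows differed from uninjected retinas at the adjusted threshold of 0.05 (quasi-likelihood test of edgeR, Benjamini-Hochberg, n = 7 and 3 mice; 0.0% called). DESeq2 called 1, mir-1982. At an unadjusted p under 0.05 edgeR gave 26 rows, 7.83% of those tested, of which 8 were higher (2.41%) and 18 lower (5.42%) in mouse gRho retinas. The median log2 fold change over all rows was 0.00, with 165 rows higher and 167 lower. Groups did not overlap in 3 rows higher with mouse gRho (0.904%) and 8 rows lower (2.41%). The higher ones were mir-1982, mir-540 and mir-499, all with a mean under 10 CPM in both groups, and the lower ones included mir-28a, mir-99b, mir-296 and mir-671.

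The intervals say how much change the data leave room for. Among the 125 rows averaging 10 CPM or more, the 95% interval lay within a 2-fold change in either direction for 108 rows (86.4%) and within 4-fold for 122. Among all 332 rows it lay within 2-fold for 151 (45.5%). The median standard error was 0.206 log2 units in the first set and 0.462 in the 207 rows under 10 CPM. For rows over 10 CPM the median SD of log2 CPM between mice was 0.272 in the mouse gRho group and 0.322 in the uninjected group.

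**Figure D1:**
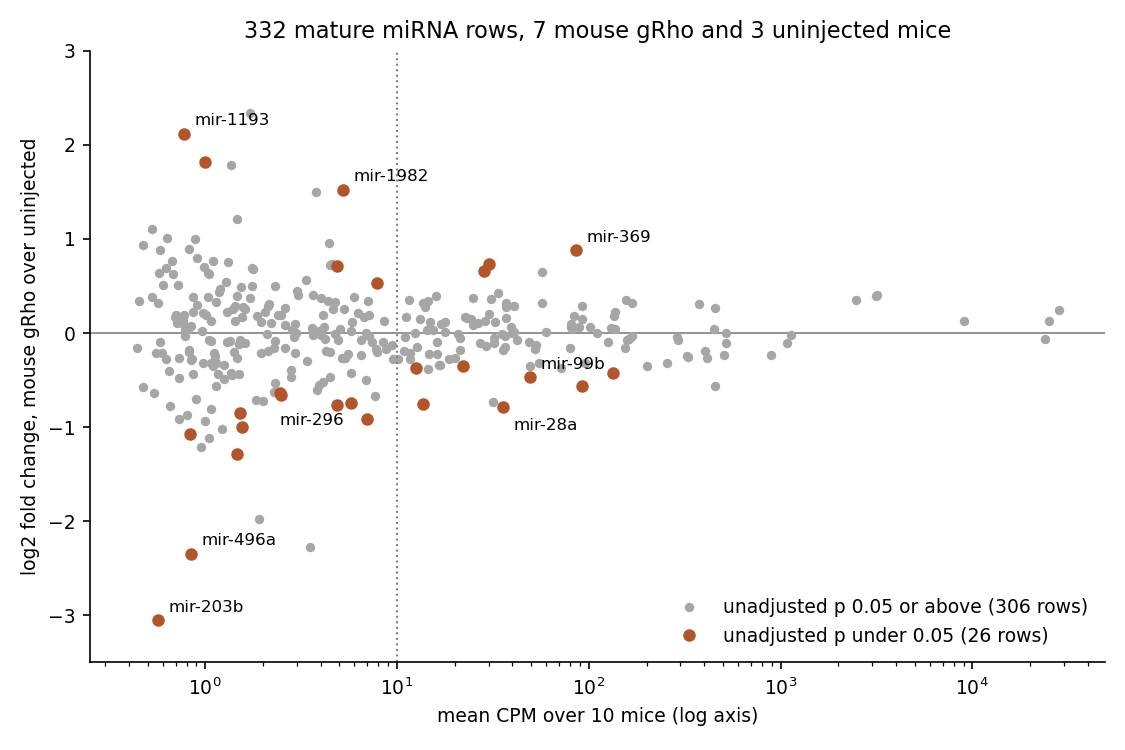
Each point is 1 of 332 mature miRNA rows: its mean CPM over 10 mice on a log axis against its log2 fold change, mouse gRho over uninjected. The 26 rows with an unadjusted p under 0.05 are coloured, 0 passed the adjusted threshold, and the dotted line at 10 CPM shows how the scatter widens at low levels.

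The miR-183 cluster is the photoreceptor signature of the retina. Its members are transcribed together, respond to light in mouse retina and are needed for photoreceptor upkeep. All 3 rows were slightly higher on average in mouse gRho retinas, with intervals that spanned 0, and 0 of 3 passed the test. The mir-183 row measured 277 CPM at the lowest, 342 at the median and 553 at the highest of the 7 mouse gRho mice, against 456.7, 137.8 and 375.5 CPM in uninjected mice 1, 2 and 3. The groups overlapped, and the only value outside the mouse gRho range was that of uninjected mouse 2. Its log2 fold change was 0.31 (SE 0.35, adjusted p = 0.915, edgeR), a fold of 1.24 with a 95% interval from 0.737 to 2.09. For mir-96 the lowest, median and highest mouse gRho values were 35.45, 51.2 and 111.6 CPM, against 67.7, 17.4 and 37.3 CPM in the uninjected mice. The log2 fold change of mir-96 was 0.65 (SE 0.44) and that of mir-182, the third member, was 0.06 (SE 0.42). Without uninjected mouse 2 mir-183 was at 0.02, mir-96 at 0.36 and mir-182 at -0.22, and without the right eye of mouse gRho mouse 1 mir-183 was at 0.47. These values depended on a single retina: without uninjected mouse 2 the median of the cluster was 0.02 in place of 0.31, and without that mouse and the right eye of mouse gRho mouse 1 it was 0.11.

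Within mouse gRho mouse 1 the eyes differed widely. Its left eye had 639 CPM of mir-183 and its right eye 38.4 CPM, and for mir-124-1 the eyes measured 136 and 3.87 CPM. The right eye also had the highest values of the corneal and lens miRNAs mir-205 (46.8 CPM) and mir-184 (29.4 CPM) and the highest sum of endothelial and mural rows (3893 CPM). Of 125 rows over 10 CPM, 56 differed by over 2-fold between its eyes, against 0 to 11 in the other 5 mice with both eyes. The part of this eye's composition in the group values was not tested beyond leaving it out.

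**Figure D2:**
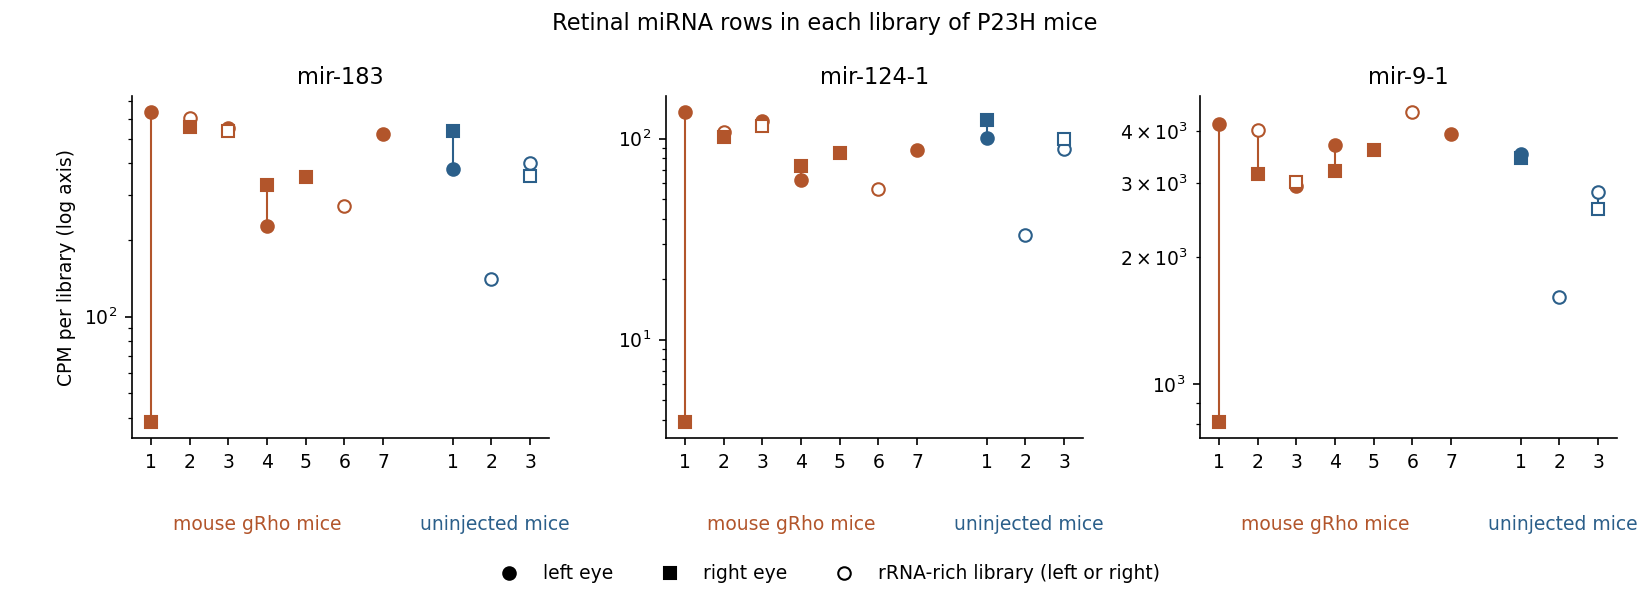
CPM of mir-183, mir-124-1 and mir-9-1 in each library on a log axis, by mouse, with mouse gRho mice on the left and uninjected mice on the right; lines join the eyes of a mouse and hollow symbols mark rRNA-rich libraries. The right eye of mouse gRho mouse 1 (38.4 CPM of mir-183) and uninjected mouse 2 (140 CPM) lie below the other libraries.

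Neuronal miRNAs also overlapped between groups. The miR-9 rows, counted from 3 loci with an identical mature RNA that can share reads, were 3 of 3 higher with mouse gRho (median log2 fold change 0.40) and 0 of 3 passed. The mir-9-1 row measured 2379, 3484 and 4526 CPM at the lowest, median and highest of the mouse gRho mice, against 3470, 1583 and 2706 CPM in the uninjected mice. Its fold was 1.32 with an interval from 0.914 to 1.91 (adjusted p = 0.703, edgeR), and 4 of 7 mouse gRho mice lay above every uninjected mouse. The miR-124 rows had a median of 0.07, and mir-124-1 measured 57.02 to 119 CPM in mouse gRho mice and 111.9, 32.6 and 94.7 CPM in uninjected mice. Without uninjected mouse 2 the miR-9 median was 0.21 and that of miR-124 was -0.22, with 0 of 3 miR-124 rows higher in place of 3. The 3 miR-124 rows had close values in each library, as with 136, 142 and 143 CPM in the left eye of mouse gRho mouse 1. They moved together and do not count as 3 separate results. Without the right eye of mouse gRho mouse 1 the miR-124 median was 0.25.

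Activity-regulated miRNAs, which neurons make in response to firing and light, included 4 tested rows, 4 of 4 higher with a median of 0.31 and 0 passing. In this list mir-132, a target of the transcription factor CREB, measured 72.2, 107.7 and 114.7 CPM at the lowest, median and highest of the mouse gRho mice, against 97.7, 39.6 and 101.8 CPM in the uninjected mice (log2 fold change 0.29, SE 0.27). Its cluster partner mir-212 was at 0.17 (SE 0.28), and mir-134 and mir-138-2, both known at synapses, were at 0.63 (SE 0.54) and 0.33 (SE 0.26). The low value of mir-132 again belonged to uninjected mouse 2. Without that mouse 3 of 4 rows were higher with a median of 0.14, and mir-132 was at 0.04 and mir-212 at -0.07.

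The miR-204 family marks pigment epithelium and Mueller glia, and both of its rows stayed near 0. The mir-204 row averaged 124 ± 23.2 CPM in mouse gRho mice and 132 ± 18.9 CPM in uninjected mice (SD, n = 7 and 3), and the groups overlapped. Its log2 fold change was -0.09 (95% interval -0.50 to 0.31), and that of mir-211 was 0.14 (SE 0.24). Among the 5 tested miR-181 rows of the inner retina, 3 were higher and 2 lower with a median of 0.05. The miR-7 list had 3 of 3 rows higher (median 0.32), led by mir-7b at 1.50 (SE 0.79). A single eye weighed heavily here, since the right eye of mouse gRho mouse 1 had 30.7 CPM of mir-7b, against 1.82 to 4 CPM in the other mouse gRho libraries and 0.73 to 2.76 CPM in the uninjected libraries. Without that eye mir-7b was at 0.71 (SE 0.38), and without uninjected mouse 2 the list median was 0.12.

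Most of the higher rows at the top of the ranking came from the Dlk1-Dio3 region, an imprinted cluster on chromosome 12 that is expressed from the maternal allele and is active in neurons. Of its 35 tested rows, 28 were higher and 7 lower with mouse gRho (median log2 fold change 0.32, against 0.00 over all rows), and 0 passed the adjusted threshold. In all, 7 of the 8 higher rows with an unadjusted p under 0.05 belonged to it, namely mir-369, mir-376b, mir-136, mir-376a, mir-323, mir-540 and mir-1193. The same was true of 1 lower row, mir-496a. Members of 1 transcript share their source, and these rows are not independent of each other.

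For mir-369 the lowest, median and highest mouse gRho mice had 51.5, 103.6 and 148.2 CPM, against 68.0, 35.0 and 58.9 CPM in uninjected mice 1, 2 and 3. In this row 6 of 7 mouse gRho mice exceeded every uninjected mouse, and the exception was mouse 1. The fold was 1.84 with an interval from 1.17 to 2.90 (log2 0.88, SE 0.31, adjusted p = 0.441, edgeR). For mir-376b the corresponding values were 23.6, 31.2 and 62.4 CPM in mouse gRho mice, against 23.8, 14.35 and 23.2 CPM in uninjected mice, and again 6 of 7 lay above (log2 0.73, SE 0.29). The mir-136 row was at 19.3 to 50.15 CPM in mouse gRho mice and at 20.8, 12.8 and 26.6 CPM in uninjected mice (log2 0.66, SE 0.28). Other members over 10 CPM were closer to 0: mir-127 was at 0.36 (SE 0.23), mir-382 at 0.32 (SE 0.21), mir-434 at 0.18 (SE 0.17) and mir-411 at 0.06 (SE 0.15). Leaving out uninjected mouse 2 put mir-369, mir-376b and mir-136 at 0.71, 0.60 and 0.50 (adjusted p = 0.849 for each, edgeR). In the same order they were at 0.505, 0.08 and -0.01 with right eyes only, and at 0.935, 1.02 and 0.989 with left eyes only. Only the right-eye fit holds the right eye of mouse gRho mouse 1, and only the left-eye fit holds uninjected mouse 2. A difference between eyes cannot be told apart from these libraries poor in retinal miRNAs.

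Among the 15 cluster rows over 10 CPM, 13 were higher and 2 lower, against 61 higher and 64 lower of all 125 such rows. Groups overlapped in 34 of the 35 rows, and the exception was mir-540, at 0.45 to 4.16 CPM in mouse gRho mice and 0.14 to 0.42 CPM in uninjected mice. Over all 332 rows, groups did not overlap in 3 higher rows (0.904%) and 8 lower rows (2.41%). The lower row mir-496a was at 0.208 to 0.813 CPM in mouse gRho mice and at 0.267, 0.287 and 5.30 CPM in uninjected mice, so uninjected mouse 3 set its value. As a list, the cluster lay 0.86 log2 units under the median of the 16 libraries in the right eye of mouse gRho mouse 1 and 0.59 under it in uninjected mouse 2, both libraries in which miR-183 and miR-124 were also low. Without these libraries the median of the cluster was 0.26. The median was 0.67 among rRNA-rich libraries and 0.20 without them.

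**Figure D3:**
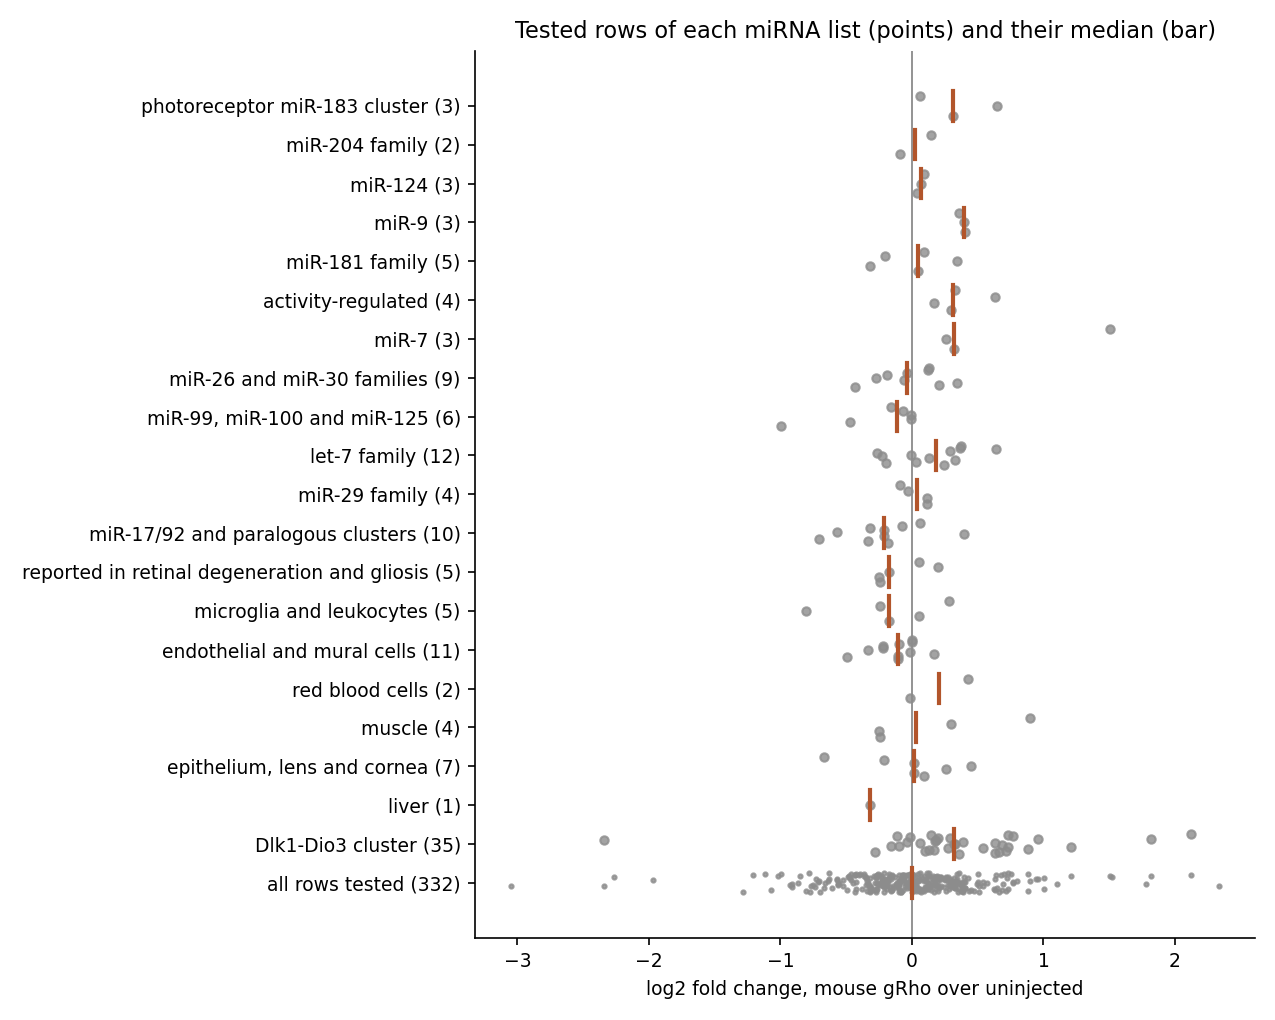
Log2 fold change, mouse gRho over uninjected, of every tested row (points) in each of 20 miRNA lists and in all 332 rows, with the list's median as a bar and the number of rows in brackets. The Dlk1-Dio3 rows centre at 0.32, the miR-17/92 rows at -0.21 and all rows at 0.00, and 0 rows passed the adjusted threshold.

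On the lower side, mir-28a had the smallest p among rows over 10 CPM. It lies in an intron of Lpp, and its 5p arm shares a seed with miR-708-5p, as printed above. The 7 mouse gRho mice had 20.1 CPM at the lowest, 29.5 at the median and 40.7 at the highest, against 41.3, 65.15 and 45.6 CPM in uninjected mice 1, 2 and 3. Summed by mouse, the groups did not overlap, by a margin of under 1 CPM. By library they did overlap, since the right eye of uninjected mouse 1 was at 31.2 CPM and 2 mouse gRho libraries were at 42.3 and 42.05 CPM. The fold was 0.582 with an interval from 0.433 to 0.781 (log2 -0.78, SE 0.20, adjusted p = 0.168, edgeR). Left eyes alone gave -1.07 (adjusted p = 0.0271) and right eyes alone -0.21 (adjusted p = 0.933), within a range of 0.0271 to 0.999 over all alternatives. Without uninjected mouse 2, a single library, mir-28a was at -0.49 (adjusted p = 0.849, edgeR). That library is in the left-eye fit only, and the right eye of mouse gRho mouse 1 in the right-eye fit only. The values by eye therefore do not show a difference between eyes. The seed partner mir-708, added to the named rows after its values were seen, measured 70.5 to 105.4 CPM in mouse gRho mice and 86.4, 71.0 and 102.2 CPM in uninjected mice (log2 0.06, SE 0.17).

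The mir-296 row, from the imprinted Gnas region, was at 4.20, 6.06 and 6.55 CPM at the lowest, median and highest of the mouse gRho mice, against 7.51, 10.5 and 13.15 CPM in the uninjected mice. Its log2 fold change was -0.91 (SE 0.22, adjusted p = 0.168, edgeR), the groups did not overlap, and its level is low. For mir-455, known from cartilage, the corresponding values were 8.94, 10.2 and 15.1 CPM, against 14.9, 25.4 and 17.5 CPM in the uninjected mice (log2 -0.75, SE 0.22, adjusted p = 0.260). Without uninjected mouse 2 mir-455 was at -0.44 (adjusted p = 0.849, edgeR). With left eyes only it was at -0.89 (adjusted p = 0.0271, edgeR), the lowest adjusted p over all alternatives. With right eyes only it was at -0.03 (adjusted p = 0.995, edgeR). As for mir-28a, these fits by eye differ in which library poor in retinal miRNAs they hold.

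A closer spread was seen for mir-99b, at 34.9, 47.7 and 51.85 CPM at the lowest, median and highest of the mouse gRho mice, against 53.5, 70.75 and 59.9 CPM in the uninjected mice. The groups did not overlap, and the fold was 0.722 with an interval from 0.564 to 0.924 (adjusted p = 0.441, edgeR). Leaving out uninjected mouse 2 put mir-99b at -0.28 in place of -0.47 (adjusted p = 0.882, within 0.222 to 0.999 over all alternatives). Its neighbours in the same primary transcript were close to 0: let-7e was at -0.01 (SE 0.16) and mir-125a at -0.01 (SE 0.14). In the wider list of miR-99, miR-100 and miR-125 rows, 6 of 6 were lower with a median of -0.12, against 167 of all 332 rows, and 2 of 6 had an unadjusted p under 0.05, against 7.83% of all rows. The direction was not held by every row: with DESeq2 2 of the 6 were higher, and without uninjected mouse 2 1 was higher and the median was -0.04. The second row with an unadjusted p under 0.05 was mir-99a, at 1.17 CPM in the median mouse gRho mouse and 2.37, 1.29 and 3.44 CPM in the uninjected mice. The mir-151 row, from an intron of Ptk2, measured 99.1, 121 and 147.0 CPM at the lowest, median and highest of the mouse gRho mice, against 145.1, 184 and 161 CPM in the uninjected mice (log2 -0.43, SE 0.16, adjusted p = 0.513), and without uninjected mouse 2 it was at -0.26. Of the remaining higher rows over 10 CPM, let-7i was at 24.8, 30.04 and 44.9 CPM at the lowest, median and highest of the mouse gRho mice, against 20.9, 25.3 and 30.9 CPM in the uninjected mice (log2 0.37, SE 0.20), and its relative mir-98 was at 0.38 (SE 0.23). Smaller differences with intervals just clear of 0 on the lower side were seen for mir-671 at -0.37 (SE 0.17) and mir-501 at -0.35 (SE 0.16).

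**Figure D4:**
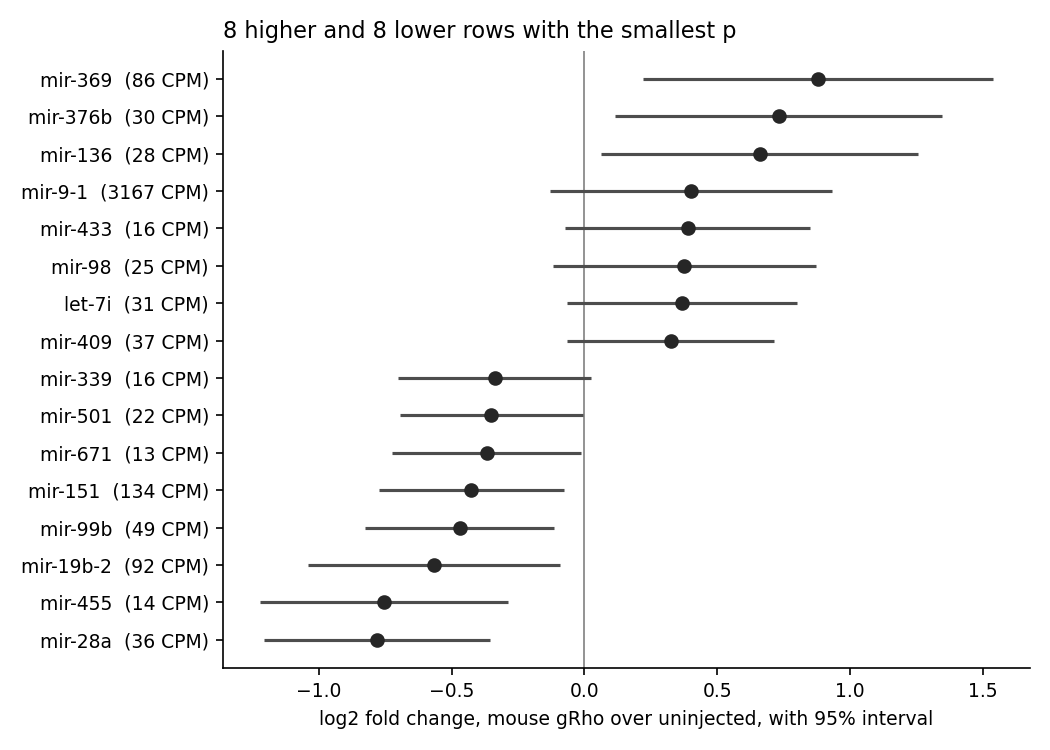
Log2 fold change, mouse gRho over uninjected, with its 95% interval for the 8 higher and 8 lower rows with the smallest unadjusted p among rows averaging 10 CPM or more, a mean that is given beside each name. The intervals run from -1.22 for mir-455 to 1.54 for mir-369, and 0 of the 16 rows passed the adjusted threshold.

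The rRNA-rich libraries hold a larger share of the uninjected group, so these rows were also read within each kind of library. Among rRNA-rich libraries mir-28a was at 21.0 to 26.2 CPM in 3 mouse gRho libraries and 41.0 to 66.3 CPM in 3 uninjected libraries, and among the others at 17.3 to 42.3 CPM in 8 mouse gRho libraries and at 31.2 and 52.3 CPM in 2 uninjected libraries. The fitted log2 fold changes were -1.14 and -0.43. For mir-369 they were 1.38 and 0.46, for mir-376b 1.24 and 0.34, for mir-99b -0.57 and -0.20, and for mir-9-1 0.93 and -0.10. All of these were larger among rRNA-rich libraries, a difference that was not tested, and for mir-9-1 the sign changed. Uninjected mouse 2 falls in the rRNA-rich set and the right eye of mouse gRho mouse 1 in the other, both poor in retinal miRNAs. With that eye also left out, the other set gave mir-9-1 at 0.03, so its sign change depended on this eye. Values for mir-28a, mir-369, mir-376b and mir-99b were then -0.52, 0.545, 0.45 and -0.23. Without the rRNA-rich libraries 5 rows had an unadjusted p under 0.05 and 0 passed. That fit has 6 mouse gRho mice and 1 uninjected mouse, which is assumed to vary like the others.

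**Figure D5:**
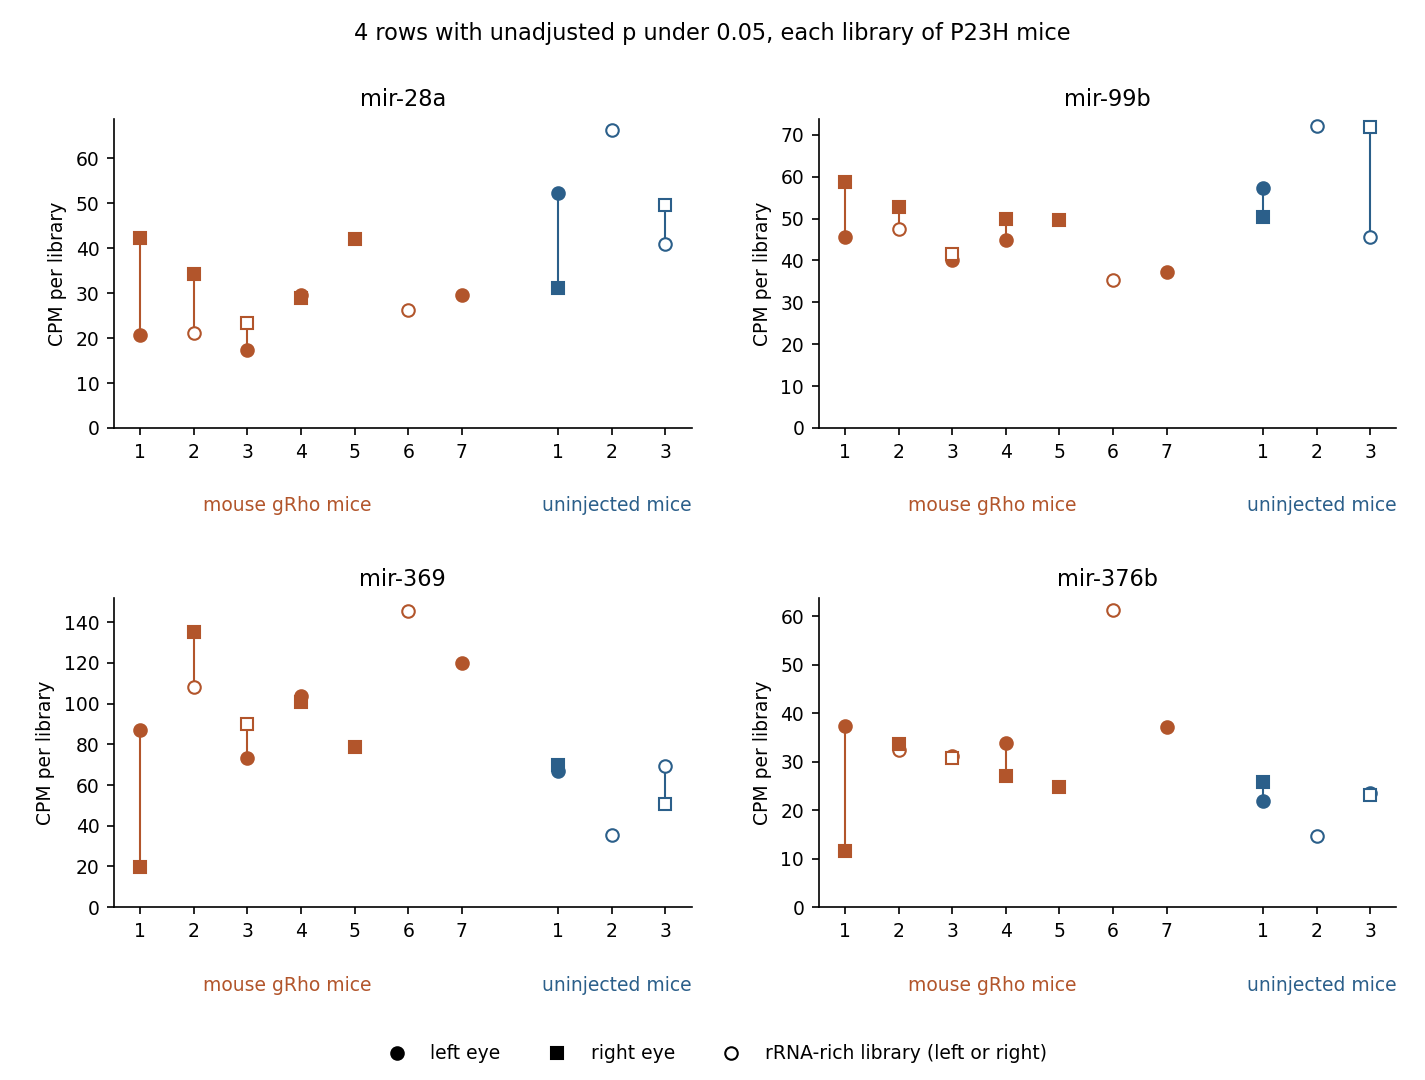
CPM in each library of mir-28a, mir-99b, mir-369 and mir-376b, by mouse, with mouse gRho mice left and uninjected mice right; lines join the eyes of a mouse and hollow symbols mark rRNA-rich libraries. Single libraries of the groups overlap in every panel, as where the right eye of uninjected mouse 1 has 31.2 CPM of mir-28a.

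The most abundant rows did not separate the groups. The let-7a-1 row, of a family that restrains growth and is high in mature neurons, was at 27170, 28740 and 32220 CPM at the lowest, median and highest of the mouse gRho mice, against 29390, 28350 and 17270 CPM in the uninjected mice. Its fold was 1.18 with an interval from 0.908 to 1.54. The low value came from a single library, the right eye of uninjected mouse 3, at 11007 CPM against 25189 CPM in its left eye. Without uninjected mouse 3 the log2 fold change of let-7a-1 was 0.05 in place of 0.24. That of let-7c-2 was then -0.09 in place of 0.13. For mir-30a the fold was 0.958 (0.740 to 1.24), and for mir-30e it was 1.09 (0.835 to 1.44). Over the families, let-7 had 8 rows higher and 4 lower of 12 (median 0.19), miR-26 with miR-30 had 4 higher and 5 lower of 9 (median -0.03), and miR-29 had 2 higher and 2 lower of 4 (median 0.04). Without uninjected mouse 2, 10 of 12 let-7 rows (median 0.36) and 7 of 9 miR-26 and miR-30 rows (median 0.15) were higher. The clusters of the miR-17/92 type, known for cell growth, had 2 higher and 8 lower of 10 (median -0.21), and a median of -0.10 without that mouse. Of these mir-19b-2 had an unadjusted p under 0.05, at 64.6 to 100.6 CPM in mouse gRho mice and 72.2, 145.5 and 139 CPM in uninjected mice. Both high values of mir-19b-2 are those of mice with rRNA-rich libraries. Without such libraries, which leaves only uninjected mouse 1 in its group, the log2 fold change was 0.09 in place of -0.57. Among rRNA-rich libraries it was -0.61, at 79.4 to 98.8 CPM in 3 mouse gRho libraries and 128 to 149 CPM in 3 uninjected ones. The part of rRNA in this row was not tested.

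Inflammation and gliosis markers that retinal degeneration studies follow were read next, and 0 of their tested rows passed. In microglia and leukocytes, 2 rows were higher and 3 lower of 5 (median -0.18). The mir-142a row, specific to blood-derived cells, was at 26.0, 30.5 and 56.2 CPM at the lowest, median and highest of the mouse gRho mice, against 32.9, 42.2 and 41.9 CPM in the uninjected mice (log2 -0.18, SE 0.22). The row of mir-223, known from myeloid cells, was at 0.05 (SE 0.32) and that of mir-21a, raised in gliosis and scarring, at 0.20 (SE 0.37) on a level of 1.41 to 4.27 CPM in mouse gRho mice and 2.01 to 2.60 CPM in uninjected mice. The list of miRNAs reported in retinal degeneration had 2 rows higher and 3 lower of 5 (median -0.18). Its tested rows include mir-133a-1 and mir-133a-2, which are also in the muscle list below and had near-equal values in each library. Without uninjected mouse 2, 4 were higher with a median of 0.30. Among these were the mir-133a rows at 0.32 and 0.33, while mir-142a was at -0.04, mir-21a at 0.20 and mir-223 at 0.30. A further 5 rows of the list, 4 of them past the filter, jumped between 2 levels across libraries and were not tested, as explained below.

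Blood, vessel and muscle miRNAs varied widely between mice in both groups. The red-cell row mir-451a ran from 204.9 to 2081 CPM in mouse gRho mice and was at 288.3, 1682 and 1446 CPM in uninjected mice. Its fold was 0.988 with an interval from 0.306 to 3.19, too wide to show a 2-fold difference. Its sign depended on the libraries: without rRNA-rich libraries mir-451a was at 2.18 (SE 0.97) and among rRNA-rich libraries at -0.79 (SE 1.71). The muscle row mir-133a-1 ran from 72.5 to 437.8 CPM in mouse gRho mice and was at 112.3, 564 and 416 CPM in uninjected mice. Here too the kinds of library gave opposite signs, 1.69 without rRNA-rich libraries and -1.42 among them. Low values of both belonged to mouse gRho mice 2 and 6 and uninjected mouse 1. The red-cell list had 1 row higher and 1 lower (median 0.20), and the muscle list 2 higher and 2 lower of 4 (median 0.03). Among endothelial and mural rows, 2 were higher and 9 lower of 11 (median -0.11), and the endothelial mir-126a was at 581.5 to 1318 CPM in mouse gRho mice and 880, 1688 and 836 CPM in uninjected mice (log2 -0.11, SE 0.28). The epithelium, lens and cornea list had 5 rows higher and 2 lower of 7 (median 0.02), with mir-205 at 0.01 (SE 0.30) and mir-184 at -0.22 (SE 0.34). Of the liver list 1 row was tested, mir-194-2 at -0.32 (SE 0.43) on a level of 0.522 to 1.51 CPM in mouse gRho mice and 0.718 to 1.91 CPM in uninjected mice. Several of these medians moved without uninjected mouse 2: to 0.75 for red cells, 0.69 for muscle, 0.21 for endothelial and mural rows (7 of 11 higher, with mir-126a at 0.37), 0.30 for epithelium, lens and cornea, and -0.02 for microglia and leukocytes. Without the right eye of mouse gRho mouse 1, the epithelium, lens and cornea median was -0.14 with 1 of 7 rows higher. The part of these cell types in the retinal values was not tested.

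Of the 4 rows with the smallest p, 3 had a mean under 10 CPM: mir-1982, mir-296 and mir-203b. With edgeR the log2 fold change of mir-1982 was 1.52 (SE 0.34, adjusted p = 0.168), and DESeq2 called the row (1.56, adjusted p = 0.00331), within a range of 0.00331 to 0.999 over all alternatives. It was at 3.56 to 9.60 CPM in mouse gRho mice and at 2.37, 2.01 and 2.31 CPM in uninjected mice. Within uninjected mice 1 and 3 the left eyes had 4.81 and 4.82 CPM and the right eyes 0.07 and 0.31 CPM, and the left eye of mouse 2 had 2.04 CPM. Mouse gRho libraries had 3.22 to 10.3 CPM, so the left eyes of uninjected mice 1 and 3 lay among them and the other uninjected libraries below. A similar step between eyes was seen for mir-3059, which was called by edgeR without mouse gRho mouse 1 (log2 -5.16, adjusted p = 8.93e-06). In uninjected mouse 3 the left eye had 0.25 CPM of it and the right eye 12.2 CPM, and the left eye of mouse gRho mouse 1 had 15.8 CPM. The mir-203b row was at 0.00 to 0.667 CPM in mouse gRho mice and at 0.572, 2.58 and 1.24 CPM in uninjected mice.

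Such steps were common in the matrix, and 59 rows past the filter were set aside because they jumped between 2 levels across libraries. In such a row the libraries fall on an upper and a lower level, whose values differ from row to row and can themselves be low, as for mir-122 with an upper level of 2.95 to 12.4 CPM in mouse gRho libraries and 4.97 to 8.76 CPM in uninjected libraries. The levels were set over all 23 libraries, so a row can have a single level in these 16. The eyes of 1 mouse sat on different levels in 121 of 354 pairs of row and mouse (34.2%). The upper level was reached in 48.5% of the mouse gRho values and 46.8% of the uninjected values. For mir-1a-2, the main muscle miRNA, it was reached in 5 of 11 mouse gRho libraries (9940 to 71700 CPM) and 3 of 5 uninjected libraries (16300 to 25600 CPM), with at most 0.682 CPM in the rest. The immune rows mir-155 and mir-146a reached it in 10 and 4 of 11 mouse gRho libraries and in 5 and 4 of 5 uninjected libraries. In the Dlk1-Dio3 cluster, mir-376c reached it in 9 of 11 mouse gRho libraries (31.9 to 45.8 CPM) and 3 of 5 uninjected libraries (25.4 to 34.8 CPM). When these rows were kept, edgeR called 1 of 391, mir-224, which was on its upper level in 0 of 11 mouse gRho libraries and in 2 of 5 uninjected libraries, the left eyes of mice 1 and 3 (92.6 to 99.1 CPM).

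Mouse gRho mice fall under 3 leading title numbers: mice 1 and 3 share one, mice 2, 4 and 6 another, and mice 5 and 7 another again. All uninjected mice share a number that no treated mouse has, so if these are cages, cage and treatment cannot be told apart. Each set against the uninjected mice gave a log2 fold change for mir-28a of -0.92, -0.82 and -0.49 in the order above, for mir-369 of 0.32, 1.21 and 0.87, for mir-9-1 of 0.09, 0.55 and 0.54, and for the Dlk1-Dio3 median of 0.25, 0.48 and 0.31. These comparisons share the uninjected mice. With 0, 3 and 2 rows called in the 3 sets, the called rows were mir-1943, mir-1982 and mir-3059 in the second and mir-1224 and mir-3059 in the third.

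The make-up of the libraries by read class was compared over mice for 21 classes, and 0 passed at 0.05 before or after adjustment (exact permutation test, two-sided, smallest possible p 0.0167). At that smallest p, a class on its own could not pass after adjustment over 21 classes. Mature miRNA took 81.4% ± 3.42 of aligned reads in mouse gRho mice and 77.1% ± 6.89 in uninjected mice (SD, n = 7 and 3 mice; exact p = 0.3). Ribosomal RNA took 1.51% ± 1.65 in mouse gRho mice and 2.97% ± 2.42 in uninjected mice (exact p = 0.3), and tRNA took 0.742% ± 0.687 in mouse gRho mice and 1.93% ± 1.43 in uninjected mice (exact p = 0.133).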

How the data were processed

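Small RNA of flash-frozen retinas was extracted with Trizol and made into libraries with a NEXTflex v3 kit, per the labels' protocols. Read counts by miRNA locus and class were deposited by the authors, with a second table of read counts by alignment class. DESeq2 is named in the submitters' processing notes, and no source used here gives the aligner, counting program, annotation or build. The 903 mature rows held 10.4% to 19.5% of the mature reads of the alignment table in the 16 libraries compared, and 0 columns were left unused. Counts of the eyes were summed per mouse, a reading of the titles (number, ear mark, eye) that no label states, so p-values cover only how these sums vary, which may be partly technical.

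The 391 rows that reached 10 counts in 3 or more of the 16 libraries entered, less 59 two-level rows (highest count at least 30 and a gap of at least 3.5 in sorted log2(CPM + 0.5), or of 2 or more with 2 libraries or more on either side). Tests used edgeR 4.0.16 (robust quasi-likelihood, R 4.3.3), mature miRNA reads and TMM. DESeq2 1.42.0 and limma 3.58.1 (voom) were alternatives, and the test was tried on simulated counts. Standard errors come from the fold change and the F statistic. CPM per library were scaled by library. Named rows are the 8 higher and 8 lower of smallest p over 10 CPM, the 4 of smallest p, the 10 highest, retinal and single marker rows, the smallest p of each of 20 lists and, added later, mir-708, 59 in all. Two-level list members are named as values only, outside these 59. Members and lists were chosen with earlier results of these data known.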

Additional observations from a re-analysis of the deposited data

Results flagged for a closer look

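Of 80 sets of 7 mouse gRho values examined, 15 had a mouse far from the other 6 (gap to the next value over the whole range above Dixon's 95% limit for 7 values). That limit gives about 1 in 20 only for independent values with a normal spread. These were untransformed levels and shares, some near 0 and many linked, so the 15 cannot be set against chance. Mouse 6 stood apart in 8 of them: its mir-376b was at 62.4 CPM, next 34.8 (ratio 0.711), and its mir-499 at 1.79 CPM, next 0.935 (0.828). In the same mouse total miRNA was 83.9% of aligned reads, next 91.5% (0.615), mature miRNA 74.3%, next 80.8% (0.626), unannotated miRNA 0.0184%, next 0.00831% (0.61), rRNA 4.85%, next 2.25% (0.58), scRNA 7.07%, next 2.54% (0.673), and intron reads 0.141%, next 0.188% (0.646). These shares sum to a whole and are not independent. Mouse 6 has a single library, an rRNA-rich one, while the other rRNA-rich mouse gRho libraries were summed with the other eye. On its own the left eye of mouse 2 had 73.2% mature miRNA, 6.20% rRNA and 7.11% scRNA.

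Mouse 1, whose right eye is poor in retinal miRNAs, stood apart in mir-7b at 17.5 CPM, next 3.51 (0.889), mir-205 at 32.9 CPM, next 20.7 (0.577), and mir-501 at 25.7 CPM, next 21.1 (0.581). Single rows set apart were mir-30a in mouse 2 at 17000 CPM, next 23500 (0.73), mir-142a in mouse 5 at 56.2 CPM, next 36.8 (0.645), mir-203b in mouse 7 at 0.667 CPM, next 0.208 (0.688), and mir-496a in mouse 4 at 0.813 CPM, next 0.39 (0.699).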

How the results depend on the processing

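The count of 0 called rows held in 19 of 30 alternatives and reached 1 to 3 in 11. It was 1 with DESeq2 (mir-1982), 2 of 822 rows with no filter (mir-203b and mir-1982), 1 with two-level rows kept (mir-224), 2 with left eyes only (mir-455 and mir-28a), 2 with right eyes only (mir-539 and mir-1982), 3 with mouse gRho mice 2, 4 and 6 alone, 2 with mice 5 and 7 alone, and 1 in rRNA-rich libraries only (mir-3059), a setting chosen after seeing the data. Leaving out 1 mouse gave 0 to 3: without mouse gRho mouse 1 it called mir-1982 and mir-3059, without mouse 5 mir-1982, mir-3095 and mir-28a, and without mouse 6 mir-3078. The cause was not tested. The rows mir-539, mir-1982 and mir-3059 step between the eyes of 1 mouse. So do mir-1943, mir-1224, mir-3078 and mir-3095. In uninjected mouse 3 the left and right eyes had 5.58 and 0.31 CPM of mir-1224, 0.25 and 9.82 CPM of mir-3078, and 0.13 and 2.76 CPM of mir-3095. In mouse gRho mouse 4 they had 0.16 and 8.67 CPM of mir-1943.

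Of 59 named rows, 22 kept 1 sign in every alternative and 37 changed sign in some, all uncalled there. Leaving out the TMM factors moved the median of all rows to -0.12. The miR-183 median ranged from -0.30 to 0.97, miR-9 from -0.14 to 0.91, miR-124 from -0.53 to 0.70 and Dlk1-Dio3 from 0.19 to 0.67. In the 12 alternatives run for read classes 0 passed, in designs with few mice. Those without an uninjected mouse could not have called a class, since their smallest possible p lies above 0.05. The count is therefore no check on the class shares. Red-cell and muscle medians ranged from -1.03 to 2.35 and from -0.87 to 1.42. No paired analysis was possible because, as the titles were read, no mouse is in both groups. With 3 uninjected mice, 164 of 207 rows under 10 CPM leave a change of over 2-fold possible.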
